A study of Mus musculus with 383 samples.

Results

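Epcam-negative cells of mouse skin squamous cell carcinomas were divided by the message of integrin alpha V (Itgav, CD51), and the cells above a threshold were set against those below it. The members were single cells sorted as Epcam-negative whose levels of Vcam1 (CD106) and Itgb3 (CD61) were both under 50 CPM, that is, read counts scaled to the gene reads of the cell. Of these, 99 cells had Itgav at 50 CPM or more and are called Itgav-only, and 59 had Itgav under 50 CPM and are called triple-low. Of the 310 cells labelled Epcam-negative 47 failed the filters on depth and quality, and of those kept the Itgav-only class was 37.6% (exact 95% interval 31.8% to 43.8%) and the triple-low class 22.4% (17.5% to 27.96%). The other kept Epcam-negative cells had Vcam1 or Itgb3 at 50 CPM or more.

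The series holds 383 wells, with 310 Epcam-negative and 70 Epcam-positive single cells and 3 control wells. All were sequenced by Smart-seq2, which amplifies full-length cDNA without molecular identifiers. Plate rows and columns below follow the index pair in each well's title, which names no plate or position. All cells came from tumours of Lgr5CreER mice with p53 fl/fl and Rosa26-YFP, among other alleles, so that both classes carry the same alleles, and YFP marks the cells in which Cre has acted and their descendants. Cre is driven from Lgr5, a gene of hair follicle stem cells, and the tumours model carcinoma from that lineage. The labels name no animal, tumour, age or sort for a well. Each class was therefore 1 sample, the cells were not replicates of a condition, and no test and no p-value could be had. Intervals of CPM below cover the counting error of reads and intervals of shares that of drawing cells from 1 sample, neither covers the spread between animals or tumours, and ratios are log2 of CPM + 1 summed over the cells of each class, Itgav-only over triple-low.

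Integrins are pairs of an alpha and a beta chain that hold a cell to the matrix around it. The alpha V chain pairs with the beta 1, 3, 5, 6 or 8 chain, binds fibronectin, vitronectin and other ligands through their RGD motif, and with some of its partners releases active TGF-beta from its latent form. In skin carcinoma, loss of Epcam goes with the epithelial to mesenchymal transition (EMT), in which keratinocytes lose junctions and keratins and take on vimentin and matrix genes. CD51, CD61 and CD106 are surface markers by which Epcam-negative cells of such tumours have been divided into states of that transition.

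The classes differed in how much RNA their wells held. Gene reads per spike-in read, a measure of the RNA content of a well, had a median of 176.5 in Itgav-only cells (16.8 to 1079) and 66.6 in triple-low cells (12.1 to 304.6). At least 100 gene reads per spike-in read were found in 80 of 99 Itgav-only cells and in 21 of 59 triple-low cells. Reads fell in a median of 6751 genes in Itgav-only cells (3958 to 9907) and 5005 in triple-low cells (2480 to 8955), at median depths of 405793 and 322465 gene reads. The median mitochondrial share was 4.35% in Itgav-only and 5.29% in triple-low cells. Over the cells of both classes, Spearman's rho of Itgav CPM was 0.35 with gene reads per spike-in read and 0.11 with gene reads. These describe cells that are not replicates, with Itgav as the rule. Both classes lay in all 13 plate rows used for Epcam-negative cells, with 52 Itgav-only and 32 triple-low cells in columns 1 to 12 and 47 and 27 in columns 13 to 24. The part of RNA content in the differences below was not tested, but each main value was also computed in the cells at or above 100 gene reads per spike-in read (80 Itgav-only and 21 triple-low) and in those under it (19 and 38), a split chosen after the data were seen.

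**Figure D1:**
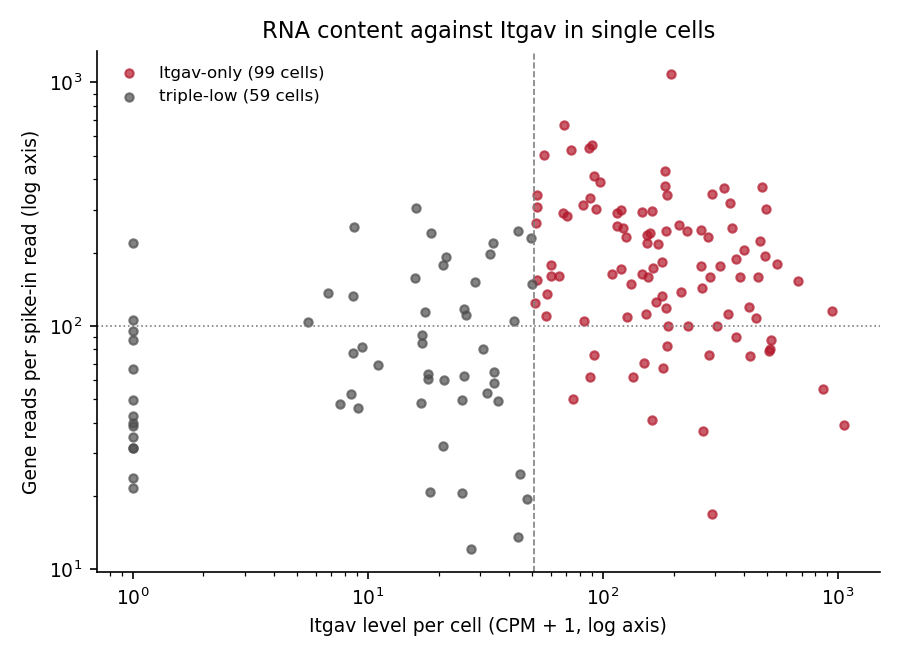
RNA content against the Itgav level in each of 99 Itgav-only and 59 triple-low cells, both on log axes (Itgav as CPM + 1). The dashed line marks the 50 CPM that divides Itgav-only (red) from triple-low cells (grey), and the dotted line 100 gene reads per spike-in read, which 80 of 99 Itgav-only and 21 of 59 triple-low cells reach.

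Itgav itself (chr2:83724397-83806916 on the plus strand of GRCm38) is given as a description, since its values chose the cells. It summed to 209.5 CPM in Itgav-only and 18.9 CPM in triple-low cells. Single Itgav-only cells held 50.6 to 1061 CPM, with a median of 176.6. Single triple-low cells held 0 to 49.2 CPM with a median of 16.4, and 14 of them had no Itgav read. The threshold fell within a continuous range: the 5 cells nearest above it had 50.6, 50.8, 51.2, 51.5 and 51.6 CPM, and the 5 nearest below it 49.2, 48.5, 46.4, 43.5 and 42.6 CPM. Itgb3, the beta 3 chain, summed to 2.71 CPM in Itgav-only and 1.71 CPM in triple-low cells, and Vcam1 to 6.63 and 3.62 CPM, both kept low by the rule. Trp53, the floxed gene, had 21.8 CPM in Itgav-only and 23.99 CPM in triple-low cells. Counts per gene do not separate its deleted part from the rest and check no label here.

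Among the 9369 genes with at least 10 CPM in either class, 788 (8.41%) were 2-fold or more higher and 512 (5.46%) 2-fold or more lower in Itgav-only cells, the median ratio was 0.090, and 56.7% of the genes were higher and 43.3% lower by any amount. These shares are the background against which each gene group is read, and part of them comes from single cells. Of the 1300 genes past 2-fold, 1132 lay on the same side in both sets of plate columns (1 to 12 and 13 to 24), which choosing them in the same cells favours, and 16.8% owed over 50% of their reads in the higher class to 1 cell. Scaled per spike-in read in place of per gene read, the median of all ratios was 1.32, so that a group said to be near or under 0 below is so only relative to the gene reads of each cell.

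The beta chains that pair with alpha V were close in the classes. Itgb1, the beta 1 chain and the most abundant of them, had 1233 CPM in Itgav-only cells (1222 to 1244) and 895.1 in triple-low cells (882.03 to 908.4), a log2 ratio of 0.46. Its single-cell levels ran from 119.7 to 4526 CPM around a median of 935.3 in Itgav-only cells, and from 5.15 to 3501 around 788.5 in triple-low cells. The ranges overlap over nearly their whole length, and the lowest cells are triple-low. Itgb5 had 177.7 CPM in Itgav-only and 172.6 CPM in triple-low cells, and Itgb8 11.7 and 13.2 CPM. None of the 3 measured partners reached 2-fold, and Itgb3 and Itgb6 were under 10 CPM in both classes.

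Of the other integrin subunits, Itga5 was the one 2-fold or more higher. It encodes the alpha 5 chain, which with beta 1 forms the classical fibronectin receptor (chr15:103344286-103366763, minus strand, GRCm38). Itga5 had 191.4 CPM in Itgav-only cells (187.2 to 195.7) and 84.1 CPM in triple-low cells (80.1 to 88.2), 2.26-fold higher in CPM + 1 and a log2 ratio of 1.18. Single cells held 0 to 1372 CPM with a median of 85.3 in the Itgav-only class, and 0 to 883.8 with a median of 24.4 in the triple-low class. Their ranges overlap fully, and more of the Itgav-only cells are high: 62 of 99 Itgav-only and 24 of 59 triple-low cells had Itga5 at 5 or more of 100000 thinned reads (50 CPM). The ratio was 0.85 and 1.56 in columns 1 to 12 and 13 to 24, 1.32 in RNA-rich and 0.94 in RNA-poor cells. Itga7, a laminin receptor chain, had 37.7 CPM in Itgav-only and 23.1 CPM in triple-low cells. Itga6, which with beta 4 anchors basal keratinocytes to laminin, had 142.997 CPM in Itgav-only and 187.9 CPM in triple-low cells. Over the list, 1 of 10 measured subunits was 2-fold or more higher and 1 lower, with a median of -0.24.

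Genes of the adhesion machinery behind integrins lay mostly on the Itgav-only side by small amounts. Of 19 measured focal adhesion and adaptor genes, 17 had a higher sum in Itgav-only cells (56.7% of all genes did), 0 reached 2-fold on that side and 1 on the other, and their median was 0.29, against 0.090 over all genes. Flna, the actin crosslinker filamin A, had 717.3 CPM in Itgav-only and 463.8 CPM in triple-low cells (log2 ratio 0.63). Cav1, the coat protein of caveolae, had 1416 and 920.6 CPM in Itgav-only and triple-low cells, but its ratio of 0.62 was -0.20 in RNA-poor cells. Bcar1, an integrin signalling scaffold, had 27.1 CPM in Itgav-only and 15.4 CPM in triple-low cells. In RNA-rich cells the median of the group was 0.11, near that of all genes there, 0.069.

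YAP and TAZ, co-activators that respond to adhesion and stiffness, showed a similar small lead with their core targets. 10 of 12 measured genes of this group had higher sums in Itgav-only cells, where 56.7% of all genes did, and none reached 2-fold either way (median 0.48, against 0.090 over all genes). The median of the group was 0.26 in RNA-rich and 0.84 in RNA-poor cells, and 0.21 and 1.03 in columns 1 to 12 and 13 to 24. Yap1 had 1273 CPM in Itgav-only and 769.7 CPM in triple-low cells. Ccn1, a matrix protein that binds alpha V integrins and is a direct YAP target, had 1402 CPM in Itgav-only cells (1391 to 1413) and 790.9 CPM in triple-low cells (778.5 to 803.3). Its cell median was 743.7 CPM in the Itgav-only class (0 cells without a read) and 239.6 CPM in the triple-low class (2 cells without), within ranges that reached 14645 and 5273 CPM. The Ccn1 ratio of 0.83 was 0.44 in RNA-rich and 1.60 in RNA-poor cells. Lats2, a kinase that restrains YAP and is also its target, had 89.2 CPM in Itgav-only and 52.7 in triple-low cells, and Crim1 went the other way with 17.8 and 30.3 CPM.

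The extracellular ligands of alpha V integrins had no common direction. Of 18 measured, 0 were 2-fold or more higher and 2 lower, with a median of 0.11. Fn1, the gene of fibronectin, had 3987 CPM in Itgav-only and 3175 CPM in triple-low cells, and is named here after its values were seen. Ltbp1, which holds latent TGF-beta in the matrix, was on the triple-low side with 225.7 CPM in Itgav-only cells (221.2 to 230.3) and 438.9 CPM in triple-low cells (429.7 to 448.2). Single cells held 0 to 1149 CPM (median 170.6) in the Itgav-only class and 0 to 2252 (median 250.3) in the triple-low class. The highest cells are triple-low, and so are 8 of the 9 cells with no Ltbp1 read. Its ratio of -0.96 was -0.88 and -1.05 in columns 1 to 12 and 13 to 24 and -0.98 in RNA-rich cells, but -0.19 in RNA-poor cells.

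The TGF-beta group gave no common direction. Its 15 measured ligands, receptors and response genes had a median of -0.038, with 7 higher, 8 lower and none past 2-fold. Tgfb2, a TGF-beta ligand, had 123.95 CPM in Itgav-only and 80.7 CPM in triple-low cells, and Smad3, a transducer of the signal, 52.8 and 35.1 CPM. Ltbp2, a relative of Ltbp1, had 75.4 CPM in Itgav-only and 119.5 CPM in triple-low cells.

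**Figure D2:**
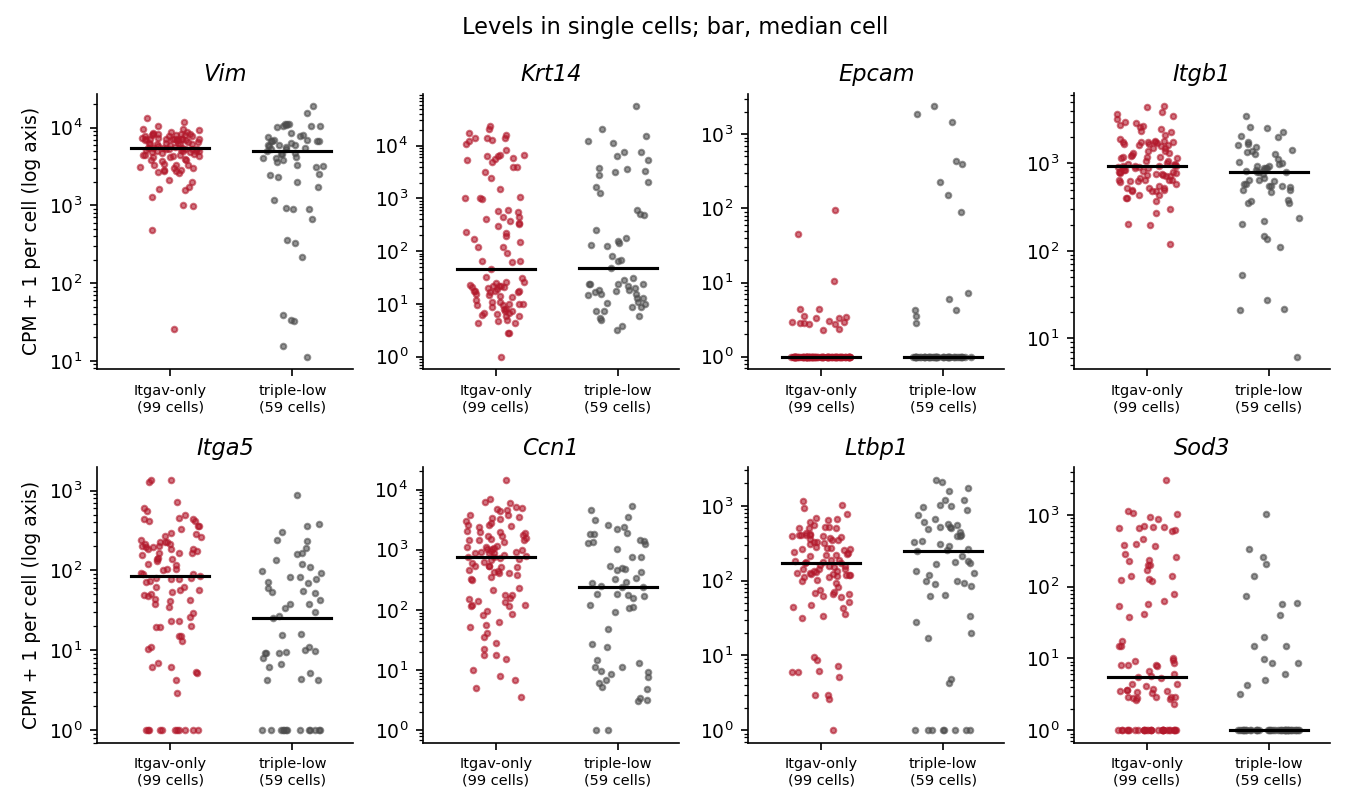
CPM + 1 in each cell on log axes for 8 genes, Itgav-only cells (red) left and triple-low cells (grey) right, with the median cell as a bar. The classes overlap for every gene shown: Vim medians are 5408 and 4992 CPM, Itga5 medians 85.3 and 24.4 CPM, and 8 triple-low cells and 1 Itgav-only cell lie at or above 50 CPM of Epcam.

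Mesenchymal genes were much alike in Itgav-only and triple-low cells. Vim, the intermediate filament vimentin, had 5613 CPM in Itgav-only and 5572 CPM in triple-low cells, a log2 ratio of 0.010, and was present in 98 of 99 and 55 of 59 cells. Single cells held 25.1 to 13247 CPM (median 5408) in the Itgav-only class and 10.3 to 18984 (median 4992) in the triple-low class, where more cells lay at the low end. The 12 measured genes of the mesenchymal cytoskeleton and surface had a median of -0.057, with 6 on each side and none past 2-fold. Pdgfra, a receptor of mesenchymal cells, had 176.8 CPM in Itgav-only and 291.5 CPM in triple-low cells. Nt5e, the ectonucleotidase CD73, had 99.7 CPM in Itgav-only and 67.7 in triple-low cells.

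Among EMT transcription factors, 0 of 7 measured was 2-fold or more higher and 1 lower (median 0.11). Zeb1, a repressor of epithelial genes, had 42.6 CPM in Itgav-only and 25.5 CPM in triple-low cells. Snai2 (Slug), another such repressor that basal keratinocytes also make, was the one past 2-fold. It had 8.23 CPM in Itgav-only cells, with 4 of 99 cells at 50 CPM after thinning, and 29.3 CPM in triple-low cells, with 10 of 59. Snai1 had 44.3 CPM in Itgav-only and 52.5 CPM in triple-low cells.

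Matrix genes were likewise mixed. The 15 genes of fibrillar collagens and their crosslinking had a median of 0.10, with 1 past 2-fold higher and 0 lower. Col1a1 had 2180.0 CPM in Itgav-only and 2028 CPM in triple-low cells, and Col3a1 3330.5 and 3742 CPM. Col5a3, a minor fibrillar collagen chain, had 64.4 CPM in Itgav-only and 26.6 CPM in triple-low cells, with a ratio of 0.77 in RNA-rich cells. The enzymes Plod2 and Loxl3, which modify and crosslink collagen, had 105.5 and 313.2 CPM in Itgav-only cells and 61.6 and 196.4 CPM in triple-low cells. Of 22 other matrix proteins, 15 had lower sums in Itgav-only cells (43.3% of all genes did), with 1 past 2-fold higher and 1 lower (median -0.20). That median was -0.075 in RNA-rich and 0.28 in RNA-poor cells, and -0.47 and 0.37 in columns 1 to 12 and 13 to 24. Aspn, the small proteoglycan asporin, had 341.02 CPM in Itgav-only and 757.9 CPM in triple-low cells, but its ratio of -1.15 was -2.01 and -0.056 in columns 1 to 12 and 13 to 24 and 0.66 in RNA-poor cells. Col4a1, a basement membrane collagen, had 114.8 CPM in Itgav-only and 220.7 CPM in triple-low cells. Col6a3 had 332.5 CPM in Itgav-only and 158.9 in triple-low cells, with medians of 5.36 and 6.21 CPM, and was present in 31 of 99 and 24 of 59 cells.

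Among matrix proteases, the sums of Mmp13 rested on few cells. Mmp13, a collagenase, had 1064 CPM in Itgav-only and 3401 CPM in triple-low cells, but 1 cell held 67.96% of the Itgav-only reads and 1 cell 44.03% of the triple-low reads. Its ratio was 1.71 in columns 1 to 12 and -5.55 in columns 13 to 24. Mmp11 had 12.5 CPM in Itgav-only and 51.6 CPM in triple-low cells, present in 8 of 99 and 10 of 59 cells. Over the 16 measured proteases and inhibitors the median was 0.27, with 1 past 2-fold higher and 2 lower.

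**Figure D3:**
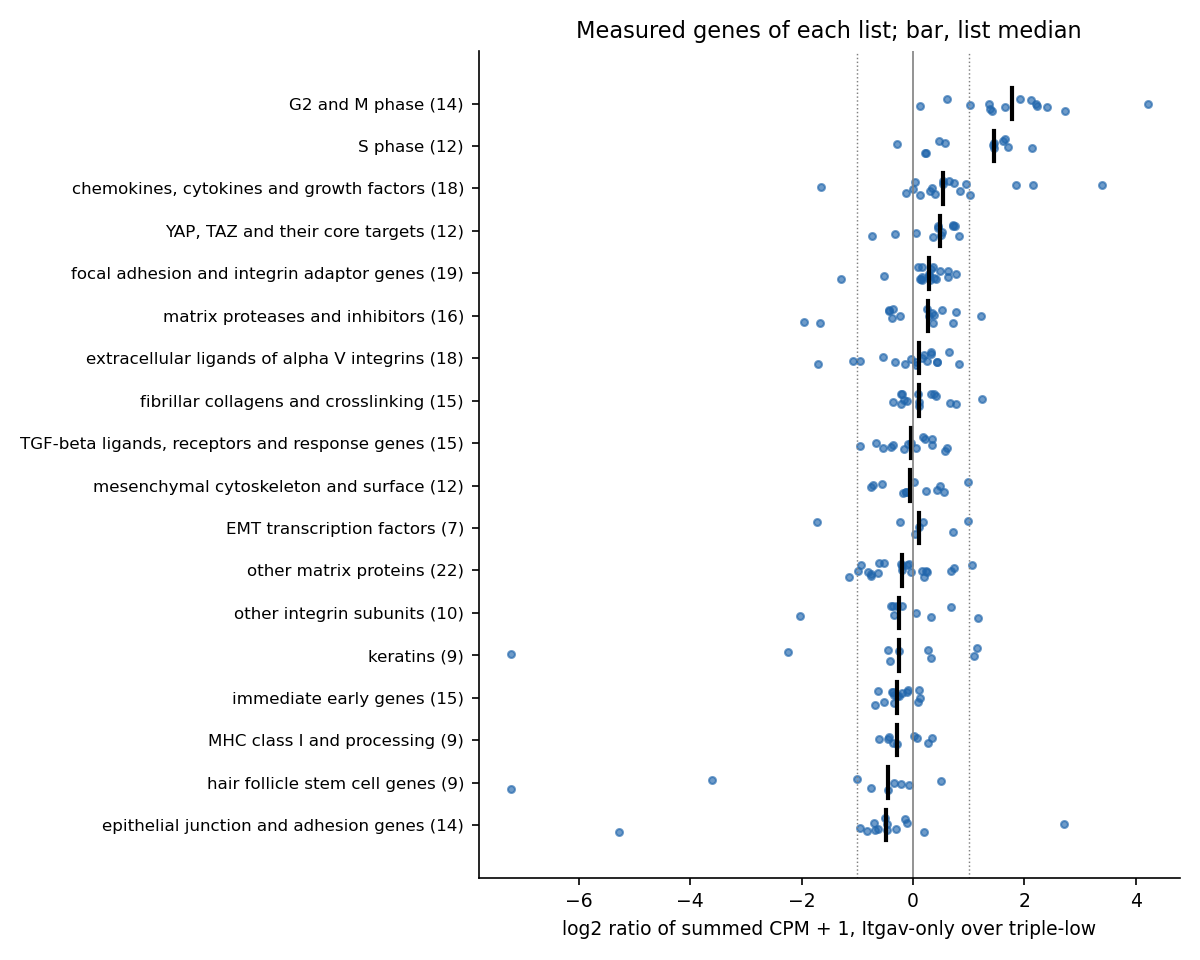
Log2 ratio of each measured gene (points) in 18 gene lists, Itgav-only over triple-low, with the list median as a bar and dotted lines at 2-fold; the number measured follows each name. The medians of the G2 and M phase list (1.79) and the S phase list (1.45) lie past 2-fold, and those of the mesenchymal and matrix lists lie near 0.

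The sums of several epithelial genes turned on a few triple-low cells. Epcam had 1.72 CPM in Itgav-only and 104.3 CPM in triple-low cells. Of the triple-low cells, 8 had Epcam at 50 CPM or more and held 99.7% of the Epcam reads and 98.04% of the reads of Krt15, a keratin of hair follicle stem cells; 1 Itgav-only cell had Epcam at that level. The median of these 8 cells, all sorted as Epcam-negative, was 197.6 CPM for Vim and 9290.3 CPM for Krt14, a basal keratin. Single cells of the 8 held 10.3 to 10208.5 CPM of Vim and 2008.7 to 56263.6 CPM of Krt14, so that not all were low in Vim. Whether these wells hold cells of the labelled sort was not tested, and ratios of epithelial genes are therefore also given without these cells and the Itgav-only one. Krt17 had 164.5 CPM in Itgav-only and 778.98 CPM in triple-low cells with all cells in, and a ratio of 1.70 in place of -2.24 without the 9 cells. Krt14 had 2385 CPM in Itgav-only and 3158 CPM in triple-low cells, with medians of 45.3 and 46.4 CPM, and its ratio was 1.59 in place of -0.41 without them.

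The list medians changed sign as well. The epithelial junction list (14 measured, 12 of them lower in Itgav-only cells) had a median of -0.49 with all cells and 0.35 without the 9 cells, when 11 were higher. The keratin list (9 measured) had -0.25 and 1.60, and the hemidesmosome and laminin-332 list (10 measured) -0.27 and 0.48. Without the 9 cells, 8 of 9 keratins were higher in Itgav-only cells and 6 of them 2-fold or more. In that setting 9.95% of measured genes were 2-fold or more higher, and the median of all genes was 0.10. Choosing cells by Epcam took out 8 triple-low cells and 1 Itgav-only cell, which by itself favours higher epithelial ratios in Itgav-only cells. Lama3, a chain of laminin-332, had 26.9 CPM in Itgav-only and 129.3 CPM in triple-low cells, and its ratio of -2.22 was -0.46 without the 9 cells. Tfap2a, a transcription factor of the epidermis, kept its side: it had 9.78 CPM in Itgav-only and 36.02 CPM in triple-low cells, with ratios of -1.78 and -1.49. Lgr5, the gene whose promoter drives Cre here, had 0.968 CPM in Itgav-only and 22.99 CPM in triple-low cells, and was present in 1 of 99 and 7 of 59 cells. Its ratio was -2.36 without the 9 cells and 0.63 in RNA-rich cells.

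Cells that held a basal keratin together with vimentin were found in both classes. Of 99 Itgav-only cells, 50 had Krt14 as well as Vim (50.5%, 40.3% to 60.7%), as had 26 of 59 triple-low cells (44.1%, 31.2% to 57.6%). For Krt5 and Vim the counts were 29 of 99 Itgav-only and 15 of 59 triple-low cells, and for Vim with Trp63, the master regulator of stratified epithelium, 22 of 99 and 8 of 59. For comparison, 49 of the other Epcam-negative cells and 31 of 62 Epcam-positive cells had Krt14 as well as Vim.

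Genes of dividing cells were the groups with the largest lead in Itgav-only cells. All 14 measured genes of the G2 and M phase list were higher and 12 of them 2-fold or more (of all genes, 8.41% were), with a median of 1.79. Of 12 S phase genes, 11 were higher and 1 lower, with 7 higher and 0 lower by 2-fold or more (median 1.45). Genes of 1 phase are made together in a dividing cell, so the members of a list are not independent of each other. Aurka, a kinase of the mitotic spindle, had 28.9 CPM in Itgav-only cells (27.3 to 30.6) and 0.604 CPM in triple-low cells (0.312 to 1.05). It was present in 12 of 99 Itgav-only cells and 0 of 59 triple-low cells, and 1 cell held 36.7% of its Itgav-only reads. Tpx2, which targets Aurka to the spindle, had 30.9 CPM in Itgav-only and 3.82 CPM in triple-low cells. Plk1, a mitotic kinase, had 16.9 and 2.36 CPM in Itgav-only and triple-low cells, and Cenpf, a kinetochore protein, 38.3 and 7.39 CPM.

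In the S phase list, Mcm2 and Mcm6, subunits of the replicative helicase, had 51.2 and 42.2 CPM in Itgav-only cells and 10.8 and 12.8 CPM in triple-low cells. Rrm2 and Tyms, enzymes of nucleotide synthesis, had 83.3 and 53.2 CPM in Itgav-only cells and 24.7 and 16.7 CPM in triple-low cells. The usual proliferation markers were closer than the lists: Mki67 had 37.9 CPM in Itgav-only and 18.1 CPM in triple-low cells, of which 1 cell held 77.2%, and Top2a had 51.5 and 47.2 CPM. Mki67 or Top2a was present in 19 of 99 Itgav-only cells (19.2%, 11.97% to 28.3%) and 6 of 59 triple-low cells (10.2%, 3.82% to 20.8%), shares of 1 sample per class that were not tested.

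The lead in cell cycle genes differed between RNA-rich and RNA-poor cells. In RNA-rich cells the list medians were 1.45 for G2 and M and 0.94 for S phase. There, 13 of 14 and 11 of 12 genes were higher in Itgav-only cells, where 54.97% of all measured genes were. In RNA-poor cells the medians were -0.0045 and 0.057, against 0.044 over all genes, and 7 of 14 and 6 of 12 were higher. Mki67 or Top2a was present in 16 of 80 RNA-rich Itgav-only and 2 of 21 RNA-rich triple-low cells, and in 3 of 19 RNA-poor Itgav-only and 4 of 38 RNA-poor triple-low cells. The lead also moved with the thresholds. With those of Itgav, Vcam1 and Itgb3 all at 100 CPM in place of 50, the G2 and M median was 0.19 and the S phase median 0.64. With only Itgav changed, to 100 CPM or more against under 20 CPM, the medians were 2.36 and 1.28. Whether division differs with Itgav apart from RNA content was not tested.

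**Figure D4:**
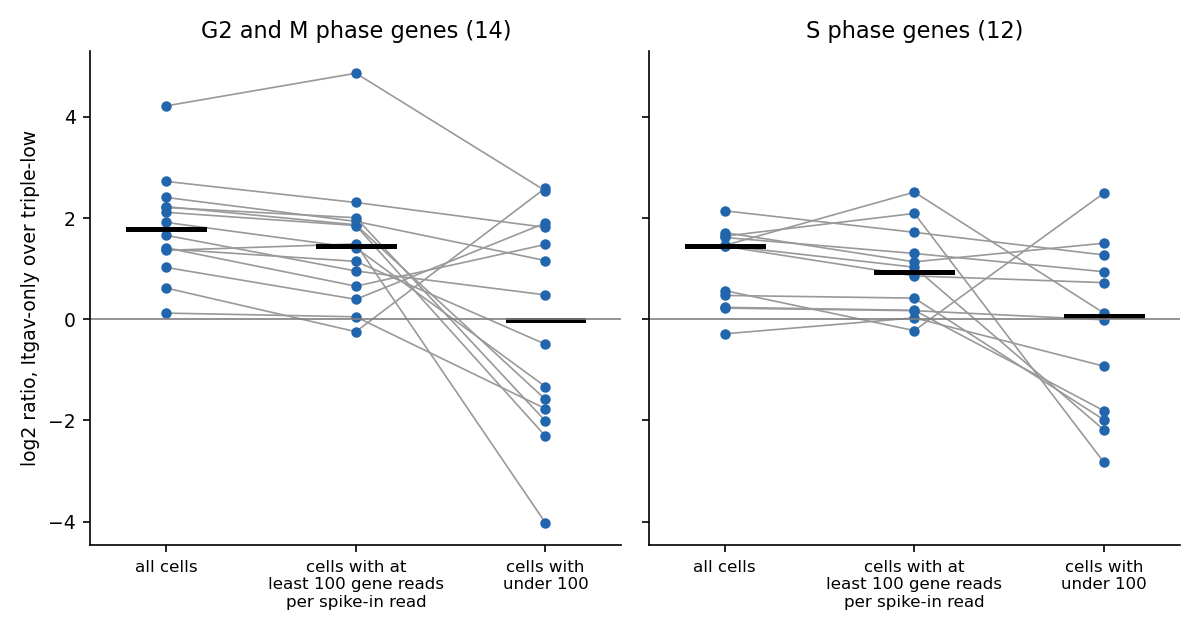
Log2 ratio of each measured G2 and M phase gene (left) and S phase gene (right), Itgav-only over triple-low, in all cells, in cells with at least 100 gene reads per spike-in read and in cells under 100; lines join a gene and bars are medians. The G2 and M median is 1.79, 1.45 and -0.0045, and single genes scatter widely in the RNA-poor cells.

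The promoters of the G2 and M genes share letters that the rule did not use. Genes of this phase are known to carry a CCAAT box, bound by NF-Y, and a cell cycle homology region, TTTGAA, bound by MuvB complexes. Windows from 250 bases before to 50 after the start (RefSeq, GRCm38.p6) were found for 13 of the 15 listed genes, and CCAAT was in 11 of them on either strand (84.6%), TTTGAA in 9 (69.2%) and both in 9. Of 15 windows of 13 S phase genes, 12 held CCAAT (80%) and 1 TTTGAA (6.67%). Of all 32851 windows, 37.4% held CCAAT, 17.9% TTTGAA and 6.95% both. The 3 windows below are those of the named G2 and M genes that had one, shown because these genes, among those with a window, had the largest lead. They are written 5′ to 3′ on the strand of the gene, with matches to either motif in capitals, and a match describes the letters and is not evidence of binding. Aurka lies at chr2:172370521-172370820 (minus strand), Plk1 at chr7:122159185-122159484 (plus strand) and Cenpf at chr1:189688037-189688336 (minus strand).
Aurka: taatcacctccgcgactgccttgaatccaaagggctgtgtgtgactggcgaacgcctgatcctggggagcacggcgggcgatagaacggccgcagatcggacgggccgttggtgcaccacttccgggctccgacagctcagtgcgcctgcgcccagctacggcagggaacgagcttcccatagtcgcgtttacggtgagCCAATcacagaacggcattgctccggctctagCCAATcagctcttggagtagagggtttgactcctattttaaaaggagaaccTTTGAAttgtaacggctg
Plk1: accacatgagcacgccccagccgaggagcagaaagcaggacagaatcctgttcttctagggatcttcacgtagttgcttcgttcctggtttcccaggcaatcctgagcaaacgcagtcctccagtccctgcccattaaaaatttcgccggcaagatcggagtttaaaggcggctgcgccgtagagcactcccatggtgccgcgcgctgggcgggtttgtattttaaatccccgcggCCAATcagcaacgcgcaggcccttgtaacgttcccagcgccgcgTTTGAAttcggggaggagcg
Cenpf: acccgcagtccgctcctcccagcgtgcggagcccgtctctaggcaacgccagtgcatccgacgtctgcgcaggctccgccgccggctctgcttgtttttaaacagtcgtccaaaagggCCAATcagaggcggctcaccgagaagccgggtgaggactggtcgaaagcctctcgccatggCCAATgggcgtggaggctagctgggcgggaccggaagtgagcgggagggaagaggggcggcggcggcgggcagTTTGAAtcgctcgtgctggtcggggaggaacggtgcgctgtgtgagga

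Secreted factors lay mostly on the Itgav-only side. Of 18 measured chemokines, cytokines and growth factors, 15 had higher and 3 lower sums in Itgav-only cells (56.7% of all genes were higher), and 4 were 2-fold or more higher and 1 lower (median 0.54). Il6, an inflammatory cytokine, had 197.3 CPM in Itgav-only cells (193.03 to 201.6) and 54.2 CPM in triple-low cells (51.04 to 57.6), and was present in 27 of 99 and 8 of 59 cells. Its ratio of 1.84 was 3.003 and 0.72 in columns 1 to 12 and 13 to 24 and 3.45 in RNA-rich cells, but -0.91 with the thresholds at 100 CPM. Tslp, a cytokine that keratinocytes release, had 45.7 CPM in Itgav-only and 3.42 CPM in triple-low cells, with 53.2% of the Itgav-only reads in 1 cell. Cxcl14, a chemokine of epithelia, was on the other side with 148.9 CPM in Itgav-only and 471.5 CPM in triple-low cells, and its ratio of -1.66 was -0.54 without the 9 cells with Epcam and -0.52 in RNA-rich cells.

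Few stress and immune response genes passed 2-fold. Cdkn1a, the cyclin-dependent kinase inhibitor p21, had 232.4 CPM in Itgav-only cells (227.8 to 237.1) and 495.1 CPM in triple-low cells (485.4 to 505.01), with ratios of -1.50 and -0.52 in columns 1 to 12 and 13 to 24 and -1.15 and -1.08 in RNA-rich and RNA-poor cells. Its cell medians were 94.3 CPM in the Itgav-only and 67.4 CPM in the triple-low class, in the opposite order to the sums, and the highest cell held 2569.6 CPM in the Itgav-only and 4214 CPM in the triple-low class. It was the one of 9 measured p53 targets past 2-fold, and their median was -0.14. Immediate early genes, which respond fast to stimuli, were lower in 12 of 15 cases (of all genes, 43.3% were), none 2-fold (median -0.29). Their median was -0.11 in RNA-rich and -0.092 in RNA-poor cells, against 0.069 and 0.044 over all genes there. Zfp36 had 710.6 CPM in Itgav-only and 1101 CPM in triple-low cells, and Jun 469.2 and 669.2 CPM. Of the MHC class I genes, B2m had 1754 CPM in Itgav-only and 2377 CPM in triple-low cells, but its ratio was -0.022 in columns 1 to 12 and -1.10 in columns 13 to 24. Of 11 measured interferon response genes 2 were 2-fold or more higher (median 0.63), Ifit1 with 42.1 CPM in Itgav-only and 8.15 CPM in triple-low cells and Usp18 with 42.7 and 9.004 CPM. In Itgav-only cells 1 cell held 75.8% of the Ifit1 reads and 1 cell 53.4% of the Usp18 reads. Their ratios of 2.24 and 2.13 changed sign with the thresholds at 100 CPM (-1.76 and -0.56), in rows J to P (-1.68 and -1.39) and in RNA-poor cells (-2.25 and -3.26), and cells with Itgav at 200 CPM or more held 0.132 and 3.56 CPM. None of the 18 hypoxia and glycolysis genes reached 2-fold (median 0.10).

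Beyond the lists, the 15 highest and 15 lowest ratios were taken among genes at 50 CPM or more in the higher class, present in at least 30% of its cells, on the same side in both column sets and by the mean of cells, and with no cell holding over 25% of the higher class's reads. The 15 highest ratios ran from 1.62 to 2.42. First was Sod3, the extracellular superoxide dismutase (chr5:52363791-52371418, plus strand, GRCm38), with 180.8 CPM in Itgav-only cells (176.7 to 184.9) and 32.8 CPM in triple-low cells (30.4 to 35.5). Single cells held 0 to 3113 CPM (median 4.49) in the Itgav-only class and 0 to 1021 CPM (median 0) in the triple-low class. The classes overlap, 29 of 99 Itgav-only and 40 of 59 triple-low cells had no Sod3 read, and 33 and 8 had it at 50 CPM after thinning. Its ratio of 2.42 was 2.28 in RNA-rich and 2.03 in RNA-poor cells. Next were Ints11, a subunit of the Integrator complex that processes RNA, with 70.4 CPM in Itgav-only and 13.8 CPM in triple-low cells, Pex13, which imports peroxisomal proteins, with 62.2 and 13.3 CPM, and Gopc, a Golgi trafficking protein, with 74.6 and 16.5 CPM.

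The 15 lowest ratios ran from -0.97 to -1.49. Marf1, a regulator of RNA and of meiosis in oocytes, had 26.8 CPM in Itgav-only and 77.1 CPM in triple-low cells, and Pgrmc2, a membrane haem-binding protein, 25.2 and 68.6 CPM. Gas6, the ligand of the receptor kinase Axl, had 99.5 CPM in Itgav-only and 226.7 CPM in triple-low cells, with ratios of -1.87 and -0.27 in columns 1 to 12 and 13 to 24. Osmr, the oncostatin M receptor, had 141.9 CPM in Itgav-only and 288.1 CPM in triple-low cells, yet its cell medians of 108.5 and 50.7 CPM ran the other way. Acvr1, a BMP receptor, had 43.9 and 89.2 CPM in Itgav-only and triple-low cells, and Thbs3, a thrombospondin, 33.003 and 65.8 CPM.

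Across 4 ranges of Itgav (under 10, 10 to under 50, 50 to under 200, and 200 CPM or more, with 23, 36, 60 and 39 cells), some of these genes stepped at the threshold and others ran with the level. Median RNA content over the 4 ranges was 52.6, 74.7, 218.5 and 158.3 gene reads per spike-in read. Sod3 had 24.5, 37.4, 164.04 and 209.6 CPM from the lowest range to the highest, and Itga5 87.4, 82.3, 187.7 and 197.8 CPM. Flna had 449.4, 471.7, 719.7 and 713.3 CPM and Ltbp1 398.5, 460.9, 229.97 and 218.4 CPM. These genes differed less within a class than between the ranges that meet at 50 CPM. They were named by their ratio across that threshold in the same cells, which favours such a gap. Cxcl14 had 804.7, 289.7, 177.5 and 99.6 CPM and Marf1 111.6, 58.2, 28.4 and 24.1 CPM, lower in each range than in the one before. The ranges include the cells with Epcam at 50 CPM or more. The Cxcl14 ratio given above was smaller in size without those cells, and also in RNA-rich cells. Vim showed no order, with 4440.0, 6190.2, 5335 and 6092 CPM.

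**Figure D5:**
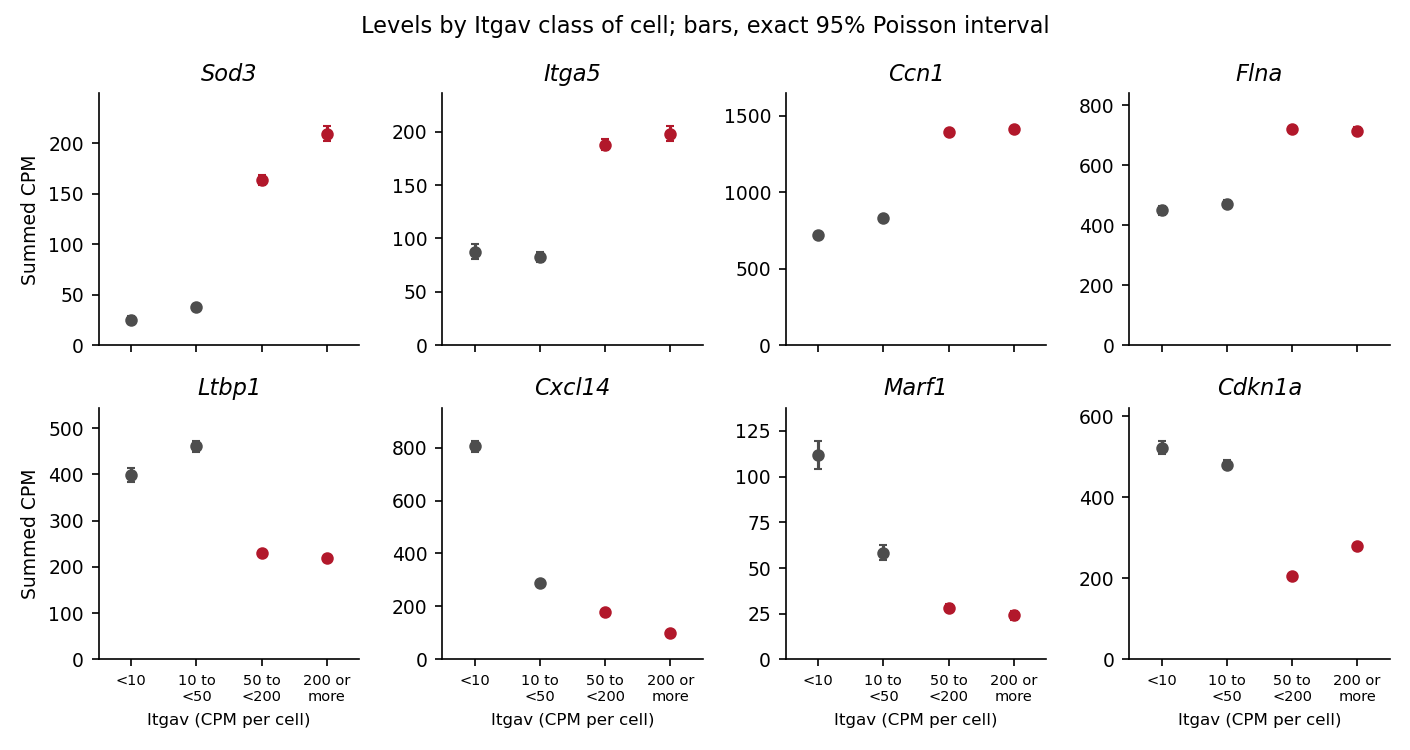
Summed CPM of 8 genes, from 0 on each vertical axis, in cells grouped by their Itgav level, low to high (23, 36, 60 and 39 cells); grey points are triple-low and red points Itgav-only cells, and bars are exact 95% Poisson intervals. Sod3 and Itga5 step up and Ltbp1 steps down between the ranges that meet at 50 CPM. The genes were named by their ratio across that threshold in the same cells, which favours such a step.

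The same division by Itgav was made in cells that the rule did not use: 71 cells with Itgav and 12 without among Epcam-negative cells with Vcam1 and no Itgb3 at 50 CPM, and 29 and 32 among Epcam-positive cells with neither. The genes' ratios had little in common with those above, with Pearson's r of 0.10 and Spearman's rho of 0.099 over 9368 genes in the Vcam1-expressing cells and 0.063 for both in the Epcam-positive cells, as a description across genes, which are not independent replicates. Of the 15 highest genes, 12 were higher with Itgav in the Vcam1-expressing cells, where 63.98% of measured genes were, and 8 in the Epcam-positive cells, where 50.8% were. The 15 lowest were lower in 11 and 9 cases, where 35.99% and 48.5% of measured genes were. Itga5 had ratios of 0.72 and 0.087 in the Vcam1-expressing and Epcam-positive cells, and Sod3 -0.11 and 0.87. Itgb1 had -0.29 and 0.31, and Ltbp1 -0.40 and 0.21. The G2 and M list had medians of 3.83 in the Vcam1-expressing cells, with only 12 cells in the lower class, and 0.20 in the Epcam-positive cells, and the S phase list 1.01 and 0.28. No difference between these divisions was tested.

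Markers of cell types that the sort could have let in differed in level by list. Of 15 immune markers 4 were measured: S100a8, S100a9, Cd14 and Cd68. The list summed to 121.8 CPM in Itgav-only and 56.5 CPM in triple-low cells, and to 575.6 CPM in Epcam-positive cells. In cells with Itgav at 50 to under 200 CPM, S100a8 had 85.3 CPM and S100a9 31.2 CPM, and at 200 CPM or more 11.6 and 0.791 CPM. Ptprc (CD45), which all leukocytes carry, was present in 0 of 99 Itgav-only cells (upper limit of the exact interval 3.66%) and 0 of 59 triple-low cells (6.06%). This limits cells with 5 thinned reads and not cells that express it. At 1 thinned read Ptprc was found in 1 of 99 Itgav-only and 0 of 59 triple-low cells. Single cells held 0 to 2634 CPM of the immune list in the Itgav-only class and 0 to 877.6 CPM in the triple-low class. Endothelial markers (1 of 9 measured) summed to 23.3 CPM in Itgav-only and 37.98 CPM in triple-low cells, and Pecam1 was present in 7 of 99 and 1 of 59 cells. Pericyte markers (4 of 8) summed to 56.7 CPM in Itgav-only and 101.1 CPM in triple-low cells, with single cells up to 382.8 CPM in the Itgav-only and 8770.2 CPM in the triple-low class. Melanocyte and erythroid markers (none measured of 7 and 5) summed to 5.76 and 0.27 CPM in Itgav-only cells and 8.10 and 0 CPM in triple-low cells. Dermal fibroblast markers, several of which mesenchymal tumour cells also make, were measured for 6 of 9 genes and summed to 3616 CPM in Itgav-only and 4122 CPM in triple-low cells, with single cells up to 23051 and 22294 CPM. By gene, 4 of the 6 were higher in Itgav-only cells and 2 lower. Their median ratio was 0.36, and -0.077 in RNA-rich cells. The part of such other cell types in the differences above was not tested.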

How the data were processed

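The authors deposited a table of raw counts of reads for genes and ERCC spike-ins by well. They used cutadapt 1.13 for trimming, STAR 2.5.2b for alignment to GRCm38 and HTSeq 0.6.0 for counting, per the submitters' processing notes. Which annotation release and which strand setting they used is not given in the sources used here, and genes that overlap another or share sequence with a relative are uncertain. Of 49585 gene identifiers, 49326 matched a symbol of GENCODE vM21 once version suffixes were dropped and 259 did not. The table had 92 spike-ins, and no 2 wells were identical.

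Cells needed 100000 gene reads and 2000 detected genes or more, no more than 20% of gene reads from mitochondrial genes and no more than 50% of all reads from spike-ins, which left out 47 of 310 Epcam-negative cells. Reads of the kept cells were summed per class (41329488 in Itgav-only and 19879750 in triple-low cells) and scaled to CPM over gene reads, with 1 CPM added for ratios. CPM compares a gene between classes, not genes with each other. A gene was measured at 10 CPM or more in either class. For shares, each cell was thinned to 100000 gene reads, and a gene was present at 5 or more. Intervals are exact 95% intervals, Poisson for CPM and Clopper-Pearson for shares. Without molecular identifiers a read is not a molecule, so the first cover counting error of reads only. The second treat the cells of 1 sample as independent draws. No doublet caller was run, since the sort gated out doublets per the labels' protocols. The code for ratios was tested on simulated data, and that for intervals was not.

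The members, gene lists and rules were chosen with earlier results of these data known. Named genes are Itgav, Itgb3, Vcam1, Epcam, Krt14, Vim and Trp53, up to 4 measured members of each list with the largest absolute ratio, and the 15 highest and 15 lowest ratios described with their values. Of the genes these rules name, some are not described, and 1 allele of the mice is not reported here. Mki67, Top2a, Col1a1 and Col3a1 are fixed markers outside these rules, and Ptprc and Pecam1 are markers of other cells. RNA-rich and RNA-poor mean at least and under 100 gene reads per spike-in read.

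Alternatives were other cell filters, thresholds, thinning, the mean of cells, TMM (edgeR 4.0.16, for factors only), median-of-ratios and spike-in scaling, other minimums, parts of the plate, and leaving out cells, with the RNA-content splits added after the data were seen. Python 3.11.15, numpy 2.4.6, pandas 2.3.3, scipy 1.17.1, matplotlib 3.10.9 and R 4.3.3 were used.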

Additional observations from a re-analysis of the deposited data

How the results depend on the processing

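No paired analysis was possible because the labels carry no replicate numbers and the values come from no test. With no replicates, a gene's ratio or a share of cells counted as moved when it left its counting interval. A list median counted as moved when it left the medians of its members' interval ends. A share of measured genes counted as moved when it changed by more than 1.5-fold. Of 70 genes named with a ratio, 36 differed 2-fold or more, and 20 of these kept their sign under all 23 alternatives to the ratios while 16 changed it under at least 1. The cause of each shift below was not tested unless the alternative itself removes cells or genes.

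The shares of measured genes 2-fold or more higher and lower in Itgav-only cells, 8.41% and 5.46%, were 13.3% and 9.46% with marker thresholds at 20 CPM, 3.61% and 3.46% at 100 CPM, and 13.97% and 9.65% for Itgav at 100 CPM or more against under 20 CPM. They were 74.7% and 0.569% per spike-in read, 2.87% and 1.92% with 10 CPM added in place of 1, 3.47% and 2.28% among genes at 50 CPM or more, and 9.12% and 6.36% with no such minimum. They were 13.4% and 10.02% in columns 1 to 12, 16.8% and 9.93% in columns 13 to 24, 24.9% and 10.7% in rows D to I, and 22.8% and 18.4% in RNA-poor cells, where fewer cells stand behind each sum. The share of lower genes was also 9.20% in rows J to P, 2.48% without the cell with most reads of each gene, and 8.68% in RNA-rich cells with Epcam under 50 CPM. The median of all genes, 0.090, was 1.32 per spike-in read, 0.27 in rows D to I and 0.24 without the top cell of each gene.

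The G2 and M and S phase medians, 1.79 and 1.45, were 2.46 and 1.12 with thresholds at 20 CPM, 0.19 and 0.64 at 100 CPM, 2.36 and 1.28 between the outer Itgav levels, 1.23 and 0.77 on thinned reads, and 1.41 and 0.91 by the mean of cells. They were 2.92 and 2.64 per spike-in read, 1.11 and 1.02 with 10 CPM added, 1.39 and 1.09 at the 50 CPM minimum, 0.74 and 0.77 in columns 13 to 24 and 2.44 and 0.85 in rows D to I. Without cells with Epcam they were 1.61 and 1.19, without cells with Mki67 or Top2a 0.91 and 1.18, in RNA-rich cells 1.45 and 0.94, in RNA-poor cells -0.0045 and 0.057, and in RNA-rich cells with Epcam under 50 CPM 1.37 and 0.64. The G2 and M median was also 3.65 in columns 1 to 12, 1.67 in rows J to P and 2.68 without the top cell of each gene, and the S phase median 1.31 with a stricter cell filter.

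Shares of cells follow the number of thinned reads that counts as present. At 1 read and at 20 reads, Krt14 with Vim was present in 84.8% and 39.4% of Itgav-only cells and in 91.5% and 28.8% of triple-low cells. Mki67 or Top2a was present in 33.3% and 11.1% of Itgav-only cells, and in 27.1% of triple-low cells at 1 read.

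Ratios of 2-fold or more that changed sign did so under these settings. Per spike-in read they were Gas6 0.070, Aspn 0.11, Cdkn1a 0.17, Acvr1 0.23 and Osmr 0.24. With thresholds at 100 CPM they were Mki67 -0.025, Cenpf -0.32, Usp18 -0.56, Il6 -0.91, Ifit1 -1.76 and the immune list median -1.02. In RNA-poor cells they were Cenpf -1.58, Ifit1 -2.25, Mcm6 -2.83, Usp18 -3.26, Osmr 0.017 and Aspn 0.66. In RNA-rich cells Lgr5 was 0.63, and in those with Epcam under 50 CPM Lgr5 was 0.74, Epcam 0.42 and Krt17 1.41. Without cells with Epcam, Epcam was 0.45 and Krt17 1.70. By position, Mmp13 was 1.71 in columns 1 to 12, the immune list median -0.056 in rows D to I, and Usp18 -1.39 and Ifit1 -1.68 in rows J to P. On thinned reads Col6a3 was -0.12.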
